A study of Mus musculus with 4 samples.

Results

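The clustered protocadherin genes were followed in RNA-seq of sorted olfactory cells with and without lamin B1, a filament protein of the nuclear lamina. The members were chosen by symbol alone, as every row whose name gives an alpha, beta or gamma protocadherin with a number or a C-type suffix. This rule found 59 of the 23337 gene symbols, with 15 in the alpha cluster, 22 in the beta cluster and 22 in the gamma cluster. Of these, 56 had 10 or more counts in every sample.

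Each sample held Tomato+ cells sorted from the olfactory mucosa of 1 mouse, and there were 4 mice in 2 experimental groups, each with 1 control and 1 mutant. Control cells were Lmnb1+/- and mutant cells were Lmnb1-/-. All mice were of mixed background and carried K5Cre, a Cre transgene under the Keratin 5 promoter, which is active in the horizontal basal stem cells of this epithelium. They also carried the Cre-dependent tdTomato reporter R26 Ai9 and a floxed Lmnb1 allele that loses exon 2, with the second Lmnb1 allele floxed in mutant and wild type in control mice. All received methimazole at 50 mg/kg, which damages the epithelium so that it regrows from these stem cells, and recovered for 4 weeks. The sorted cells were therefore the mixed progeny of the stem cells rather than one cell type, and lamin B1 is lost only where Cre has acted. Age, sex, parents, treatment, sample preparation and sequencing were matched within an experimental group, and by the submitters' design the groups differed in treatment, parents, age and sex. Every test below rests on 2 mice per genotype.

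Clustered protocadherins are transmembrane proteins of the cadherin superfamily that bind the same isoform on a facing cell. In the alpha and gamma clusters, each member has a variable exon with its own promoter, which is spliced to constant exons shared by the whole cluster, while beta genes are intact single-exon genes. A neuron uses a small, largely random choice of the alternate promoters, which depends on CTCF, cohesin and promoter methylation, whereas the C-type members Pcdhac1, Pcdhac2, Pcdhgc3, Pcdhgc4 and Pcdhgc5 are under separate control. In olfactory sensory neurons this isoform mixture is required for axons to sort into glomeruli.

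In the mouse genome (GRCm38, the mm10 build of the deposited files), 58 of the 59 symbols had a RefSeq place, all on the plus strand of chromosome 18, where the clusters cover 911.6 kb. The alpha cluster lies at chr18:36930285-37188897, the beta cluster at chr18:37264998-37521419 and the gamma cluster at chr18:37661775-37841873. Since the constant exons belong to many members at once, a read there cannot be given to a single gene, so levels are given as CPM (counts scaled to the total gene counts of the library) per kb of exon not shared with another member. These lengths ran from 2340 to 5271 bases in the beta cluster, where they are whole RefSeq genes, and from 2346 to 3028 bases elsewhere. The annotation used for counting is not given in the sources used here, so levels per kb depend on this choice of gene model. The symbol Pcdha4-g, which had no RefSeq place under its own name, had 0 counts in every sample. Pcdha4 had 22, 7, 8 and 0 counts in control 1, control 2, mutant 1 and mutant 2. Whether the row Pcdha4-g affects the reads given to Pcdha4 is not known here, so the level of Pcdha4 was not interpreted. The one other member outside the count rule was Pcdhb15 with 8 counts in control 1, against a minimum of 10 counts for Pcdha11 and 12 for Pcdhb8, the members just inside it.

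Total gene counts were 14833396 to 23704638 per sample, and the members together took 14246, 12794, 11191 and 6180 of them in control 1, control 2, mutant 1 and mutant 2. Mutant 1 stood apart by its reads outside annotated genes, at 39.4% of uniquely placed reads against 22.1% to 24.9% in the other samples, and had counts in many genes silent elsewhere. Its background, estimated over 3748 genes with 0 counts in the other 3 samples, came to 9 to 21 counts per tested member, or a median of 10.3% of the member's counts in that library. Lmnb1 itself had 20.1 and 18.5 CPM in the controls against 14.7 and 10.04 CPM in the mutants (log2 fold change -0.72, SE 0.31, edgeR likelihood-ratio test, adjusted p = 0.20), and counts over the whole gene do not isolate the deleted exon.

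Summed over each cluster, the beta cluster was the most abundant in 3 of the 4 samples (in mutant 2 the gamma sum was higher), and mutant sums were lower than control sums in the alpha and beta clusters but not in the gamma cluster. The beta genes summed to 363 and 329.8 CPM in control 1 and control 2, and to 264 and 179 CPM in mutant 1 and mutant 2. Both mutants were below both controls, with a log2 ratio of -0.46 (exact 95% counting interval -0.51 to -0.41) in experimental group 1 and -0.88 (-0.95 to -0.82) in experimental group 2. Pcdhb1 alone made 56.5% and 53.4% of the beta counts in the controls, and 49.2% and 30.1% in the mutants. Without Pcdhb1 the other 21 beta genes summed to 158, 154, 134 and 125 CPM, with ratios of -0.24 (-0.31 to -0.17) and -0.29 (-0.38 to -0.21). The mutants stayed below the controls, but the gap in experimental group 2 shrank by more than that in group 1. These intervals cover counting error only and say nothing of the spread between mice, for which the sums were given no test.

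The alpha genes summed to 72.3, 87.7, 62.0 and 49.1 CPM, again with both mutants below both controls. Their log2 ratios were -0.22 (-0.33 to -0.12) and -0.84 (-0.96 to -0.71). The gap of experimental group 2 sat mostly in the alternate alpha genes, which summed to 44.7, 62.1, 38.5 and 28.2 CPM and gave ratios of -0.21 (-0.35 to -0.08) and -1.14 (-1.30 to -0.98). The C-type alpha pair summed to 27.6, 25.6, 23.5 and 20.9 CPM, with ratios of -0.23 (-0.40 to -0.07) and -0.29 (-0.50 to -0.09).

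The gamma genes summed to 166, 181, 179.7 and 188 CPM, and mutants and controls overlapped. The log2 ratios were 0.12 (0.05 to 0.18) in experimental group 1 and 0.06 (-0.01 to 0.13) in group 2 on library totals. They stayed positive but were 0.02 and 0.04 with TMM scaling, the trimmed-mean method of edgeR. Within this cluster the gamma A genes summed to 64.6, 77.4, 63.7 and 62.6 CPM, the gamma B genes to 35.2, 46.7, 45.5 and 51.0 CPM, and the 3 gamma C genes to 65.9, 56.7, 70.5 and 74.8 CPM. The gamma share of all member counts was 27.6% and 30.2% in the controls and 35.6% and 45.2% in the mutants, while the beta share was 60.4%, 55.1%, 52.2% and 43.0%.

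**Figure D1:**
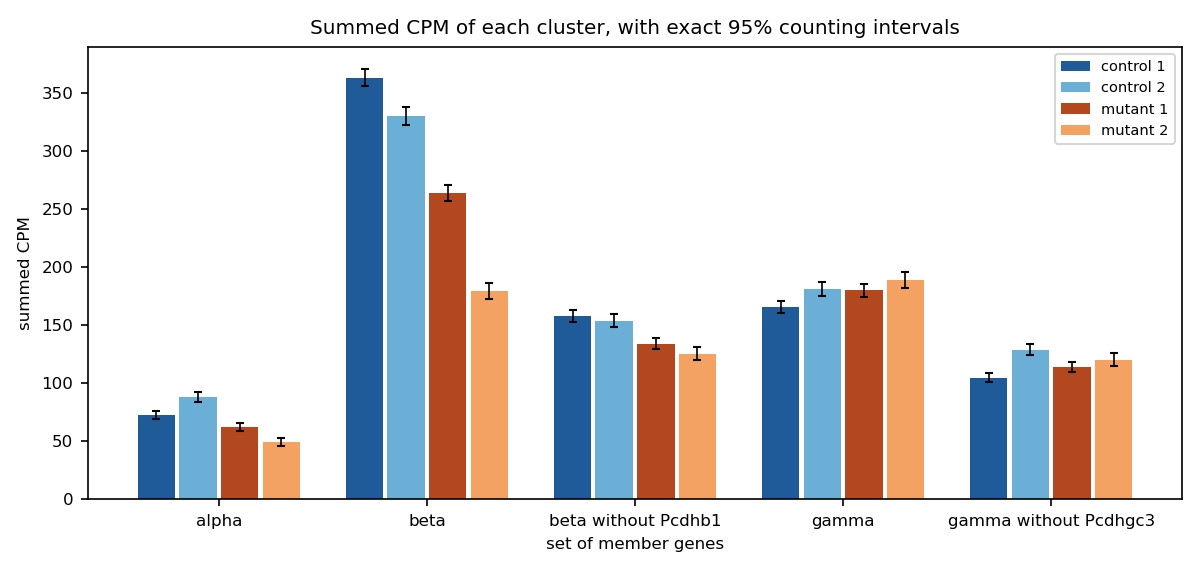
Bars give the summed CPM of each set of member genes in the 4 samples, and error bars are exact 95% intervals for counting error. The beta sums run from 363 CPM in control 1 to 179 CPM in mutant 2, and drop to between 158 and 125 CPM once Pcdhb1 is left out, while the gamma sums of both genotypes lie between 166 and 188 CPM.

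The members differed widely in level, with a pair of genes far above the others. Pcdhb1, the beta gene nearest to the alpha cluster (chr18:37264998-37267454), had 83.5, 71.7, 52.8 and 21.9 CPM per kb in control 1, control 2, mutant 1 and mutant 2. Its mean of 57.5 CPM per kb was 31.7 times the median member, and it would still be 26.8 CPM per kb over the longest beta length, which matters because its RefSeq model of 2457 bases appears to hold coding sequence only. Pcdhgc3, a C-type gamma gene (chr18:37806410-37841873), came next with 23.8, 20.3, 25.7 and 26.7 CPM per kb. Pcdhb1 was thus the highest member in 3 of the 4 samples, and in mutant 2 it lay below Pcdhgc3.

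Below these, the mean levels of members with 10 or more counts in every sample ran from 0.43 to 6.04 CPM per kb. In the beta cluster Pcdhb17 had 8.11, 6.25, 4.34 and 5.46 CPM per kb and Pcdhb9 had 5.26, 4.42, 4.48 and 2.14 CPM per kb, and the mean levels of the other 18 ran from 0.62 (Pcdhb5) to 3.52 CPM per kb (Pcdhb7). In the gamma cluster Pcdhgb6 had 2.58, 4.43, 5.32 and 4.52 CPM per kb and Pcdhga10 had 4.10, 3.31, 3.68 and 4.80 CPM per kb, with the other 19 at means from 0.58 (Pcdhgc5) to 3.24 CPM per kb (Pcdhga11). The alpha cluster was led by its C-type genes, Pcdhac2 with 5.59, 5.34, 4.46 and 5.03 CPM per kb and Pcdhac1 with 4.19, 3.69, 3.90 and 2.21 CPM per kb. Pcdha3, the highest alternate alpha gene, had 4.71, 2.82, 1.22 and 1.47 CPM per kb, and the other 10 ran from 0.43 (Pcdha8) to 2.34 CPM per kb (Pcdha9). Not all C-type genes were high, since Pcdhgc4 had 1.03, 1.16, 1.15 and 1.49 CPM per kb and Pcdhgc5 had 0.66, 0.48, 0.40 and 0.77 CPM per kb.

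Place along the chromosome was only weakly related to level. Spearman's rho between order and mean CPM per kb was -0.15 over 11 alternate alpha genes, 0.14 over 22 beta genes, 0.21 over 12 gamma A genes and 0.36 over 7 gamma B genes, across genes read from the same 4 libraries. The members also differed in how much exon sequence they repeat, which matters because only uniquely placed reads were counted. The share of 50-base words of the unshared exons that also occur in transcripts from other places in the genome had a median of 14.9% in the alternate alpha genes, 4.58% in the beta genes, 0.29% in gamma A and 11.6% in gamma B, and reached 39.5% in Pcdhga4. It was 0 in Pcdhb1 and in all 5 C-type genes.

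**Figure D2:**
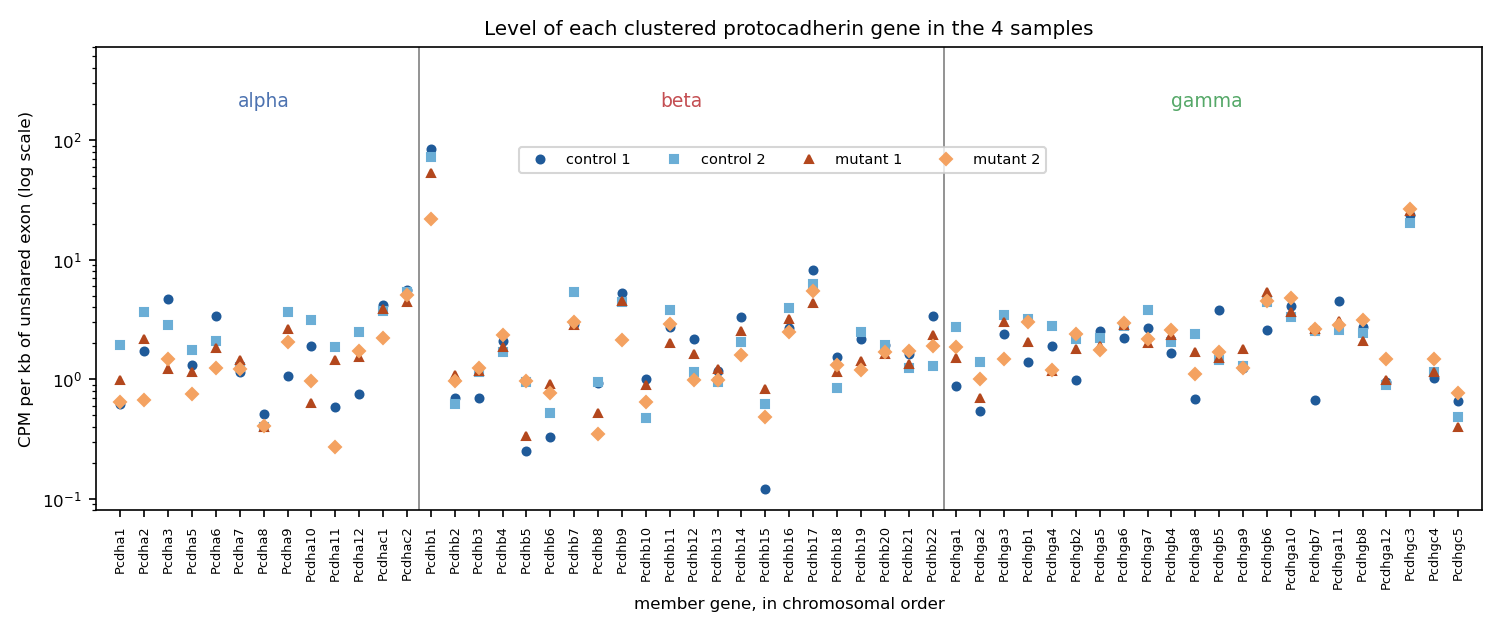
Each point is a member's CPM per kb of unshared exon in 1 sample (log axis), for the 57 tested members in chromosomal order. Pcdhb1 (21.9 to 83.5 CPM per kb) and Pcdhgc3 (20.3 to 26.7 CPM per kb) stand above all others in every sample, and the mutant 2 point of Pcdhb1 lies below the other samples.

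The mix of isoforms was broad in every sample. In each sample at least 10 counts were found for 11 or 12 of the 13 alternate alpha rows, at least 20 of the 21 beta genes other than Pcdhb1, and all 22 gamma genes. The effective number of genes, which equals the number of genes if all are used equally and 1 if a single gene takes all counts, was 7.08, 9.41, 9.36 and 8.69 for the alternate alpha genes and 12.6, 12.1, 14.7 and 14.3 for the beta genes without Pcdhb1. For the gamma genes without Pcdhgc3 it was 15.4, 18.04, 16.7 and 17.1. Control 1 had the lowest value in the alpha and gamma sets, so the genotypes overlapped in both. In the beta set both mutants lay above both controls.

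The order of the isoforms was partly kept between mice. The Spearman rho of the 21 beta genes other than Pcdhb1 lay between 0.84 and 0.96 over the 6 pairs of samples. It was 0.54 to 0.74 for the 13 alternate alpha rows and 0.50 to 0.77 for the 21 gamma genes other than Pcdhgc3. These rho rest on counts not scaled for length. Lengths varied more in the beta genes (2340 to 5271 bases) than in the alternate alpha genes (2346 to 2507 bases). The part of length in the difference between clusters was not tested. Among the alternate alpha genes the leading one was Pcdha3 in control 1 with 26.1% of their counts, Pcdha2 in control 2 with 14.7%, and Pcdha9 in both mutants with 16.9% and 17.9%. In the beta set, by contrast, Pcdhb16 or Pcdhb17 led in all 4 samples by counts not scaled for length. Pcdhb16 has the longest beta model (5271 bases). Per kb, Pcdhb17 led this set in control 1, control 2 and mutant 2. In mutant 1 Pcdhb9 led with 4.48 CPM per kb against 4.34 for Pcdhb17.

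The genotype comparison asked which members changed when lamin B1 was removed. Of the 59 members, 57 passed the filter of more than 1 CPM in at least 2 samples (not Pcdha4 and Pcdha4-g), and 52 passed it in all 4 samples. The edgeR likelihood-ratio test with experimental group as a block found 1 member lower in mutant cells, Pcdhb1, and 0 higher at an adjusted p under 0.05. Over all 15438 tested genes 4.30% were lower and 1.28% higher, so 1 of 57 is not above that share. Most members have low counts, and 1471 tested genes had mean counts in the middle range of the members (70.25 to 150). Of these genes of like counts 13 were lower and 16 higher. Pcdhb1 itself, with 799 counts or more in every sample, lay above this range. Without adjustment 5 of the 57 members had a p under 0.05 (Pcdha3, Pcdha10, Pcdhb1, Pcdhb17 and Pcdhb19), all with a lower mutant level. In either direction, 2460 of all 15438 tested genes and 158 of the 1471 genes of like counts had such a p. The SEs of the members were wide, with a median of 0.58 on the log2 scale. Only 4 members (Pcdhac2, Pcdhb16, Pcdhga10 and Pcdhgc3) had a 95% interval of the log2 fold change that lay within -1 to 1. For the other members a change of 2-fold or more in at least 1 direction was therefore not excluded at this depth and number of mice.

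Pcdhb1 had 205 and 176 CPM in control 1 and control 2, and 129.8 and 53.9 CPM in mutant 1 and mutant 2. Both mutants were below both controls, and mutant 2 was far below mutant 1. The log2 fold change was -1.24 (SE 0.24, 95% interval -1.71 to -0.77, adjusted p = 6.8e-05), or 2.36-fold lower. Within experimental group 1 the log2 ratio of CPM was -0.66 (95% counting interval -0.73 to -0.60), and within group 2 it was -1.71 (-1.82 to -1.60). Pcdhb1 was also the only member called by the quasi-likelihood test, which called 3.20% of genes lower, and by DESeq2, which called 3.45% of genes lower and gave no adjusted p to 53 of the 57 members. The call needed the block. Without it the log2 fold change was -1.12 (adjusted p = 1), and with any library left out, in a fit of genotype alone, it lay between -1.86 (without mutant 1) and -0.61 (without mutant 2) with adjusted p of 0.46 to 1.

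Within each experimental group Pcdhb1 and the mature neuron markers were both lower in the mutant. Across the 4 samples, however, Pcdhb1 and the sum of these markers did not run in parallel. In mature olfactory neurons Omp, the olfactory marker protein, and the genes of odour transduction are high, and all 13 of the 13 measured markers of the list fell, with a summed level of 18196 and 8244 CPM in the controls and 10763 and 2480.0 CPM in the mutants. Omp alone had 9434, 3207, 5580 and 907 CPM (log2 fold change -1.35, SE 0.35, adjusted p = 0.0071), whereas Gap43 of immature neurons had 167, 158, 144 and 121 CPM (log2 fold change -0.35, SE 0.19, adjusted p = 0.35). Per 1000 marker counts, Pcdhb1 had 11.3 counts in control 1 and 12.1 in mutant 1, and 21.4 in control 2 and 21.7 in mutant 2. This ratio, chosen after the values were seen, was close between the genotypes of an experimental group and differed between the groups. Mutant 1 had a higher marker sum than control 2 (10763 against 8244 CPM) but less Pcdhb1 (129.8 against 176 CPM). Omp was the largest part of the sum, and the ratio was not computed without it. Single markers differed in this. Mutant 1 was above control 2 in Omp, Adcy3, Cnga2, Cnga4, Cngb1, Ano2, Gng13, Rtp1 and Rtp2. It was below control 2, as for Pcdhb1, in Gnal (1299, 1048, 791 and 286 CPM), Stoml3, Pde1c and Slc17a6. In bulk samples fewer mature neurons and less RNA per neuron cannot be told apart, and the part of the marker change in the Pcdhb1 result was not tested.

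**Figure D3:**
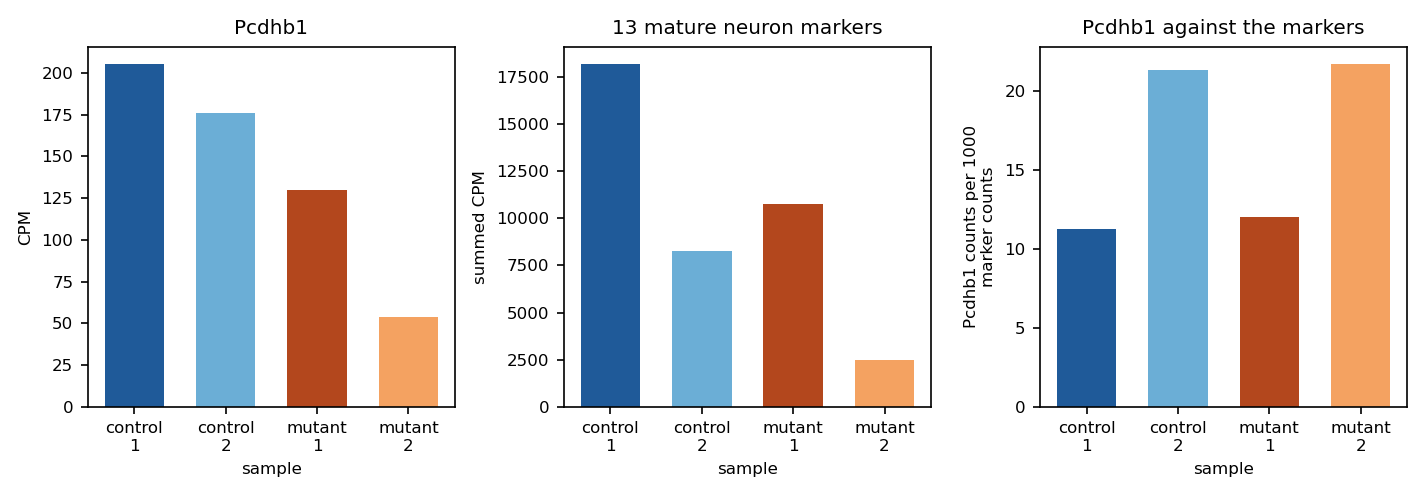
Bars give, for the 4 samples, the CPM of Pcdhb1, the summed CPM of 13 mature neuron markers, and the counts of Pcdhb1 per 1000 counts of these markers. Pcdhb1 runs from 205 CPM in control 1 to 53.9 CPM in mutant 2, and its ratio to the markers is 11.3 and 12.1 in experimental group 1 and 21.4 and 21.7 in group 2.

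Other cell type markers moved too. Of the measured markers, 2 of 12 of immature neurons fell and 0 rose, 4 of 8 of globose basal progenitors rose, 2 of 7 of horizontal basal cells rose, and 0 of 6 of sustentacular cells passed in either direction, beside 4.30% lower and 1.28% higher over all tested genes. Summed progenitor markers had 292 and 269 CPM in the controls and 461 and 495 CPM in the mutants, horizontal basal cell markers 1402 to 1994 CPM and 1887 to 2993 CPM, and sustentacular markers 6676 and 13021 CPM and 8729 and 16963 CPM. Immune markers summed to 452 and 713 CPM in the controls and 235 and 650 CPM in the mutants with 0 of 9 past the threshold. Ensheathing glia markers summed to 58.8 to 129 CPM with 1 of 7 lower, and fibroblast and endothelial markers to 296 to 955 CPM with 2 of 8 lower. No listed marker was at 0 in every sample, and their part in the member levels was not tested.

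Among the remaining beta genes the changes were smaller than their errors or short of the threshold. Pcdhb17 had 26.5 and 20.4 CPM in the controls and 14.2 and 17.9 CPM in the mutants, with both mutants below both controls (log2 fold change -0.61, SE 0.30, adjusted p = 0.29). Pcdhb19 had 240, 248, 149 and 84 counts (log2 fold change -0.86, SE 0.43, adjusted p = 0.30), again without overlap. Pcdhb9 had 16.1, 13.5, 13.7 and 6.54 CPM, and mutant 1 lay within the control range (log2 fold change -0.68, SE 0.37, adjusted p = 0.36). The most positive beta value was that of Pcdhb15, with 8, 37, 51 and 20 counts (log2 fold change 1.10, SE 1.07, adjusted p = 0.76), which rests on the low control 1 count. In total 12 of 22 beta genes had a negative and 10 a positive log2 fold change, with a median of -0.15 against -0.01 over all tested genes.

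None of the 13 tested alpha genes passed the threshold. Of these, 10 had a negative log2 fold change and 3 a positive one, with a median of -0.50, where 7884 of all 15438 tested genes had a negative value. The median ratio of the 13 was -0.19 in experimental group 1 and -0.84 in group 2. The median log2 ratio of the 11 alternate alpha genes was 0.23 in group 1 and -0.94 in group 2, and 7 of the 13 alpha genes went opposite ways in the groups. Pcdha10 had the most negative value of all members, from 113 and 167 counts in the controls and 35 and 36 in the mutants (log2 fold change -1.69, SE 0.60, adjusted p = 0.086). Pcdha3 had 276 and 149 counts in the controls and 67 and 54 in the mutants (log2 fold change -1.502, SE 0.52, adjusted p = 0.074). In both genes the genotypes did not overlap and both experimental groups went the same way. Each passed the threshold under 1 alternative setting, Pcdha10 with a filter of more than 1 CPM in all 4 samples (adjusted p = 0.023) and Pcdha3 with counts thinned to the smallest library (adjusted p = 0.042). The most positive alpha value was that of Pcdha12, at 0.18 (SE 0.65, adjusted p = 0.96) from 44, 132, 84 and 63 counts, whose sign turned without the block (-0.05).

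The C-type alpha genes were measured more precisely. Pcdhac2 had 16.9 and 16.2 CPM in the controls and 13.5 and 15.2 CPM in the mutants, so both mutants were lower by a small margin (log2 fold change -0.26, SE 0.31, 95% interval -0.88 to 0.35). Pcdhac1 had 10.7, 9.45, 9.98 and 5.66 CPM, with mutant 1 inside the control range (log2 fold change -0.47, SE 0.43, 95% interval -1.31 to 0.37).

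None of the 22 gamma genes passed the threshold by the likelihood-ratio test or the quasi-likelihood test, and by the first of these 0 of 22 had an unadjusted p under 0.05. DESeq2 called none either, but it gave no adjusted p to 53 of the 57 members and so could not call most gamma genes. Of the 22 gamma genes 9 had a negative and 13 a positive log2 fold change. Pcdhgc3 had 61.1 and 52.1 CPM in the controls and 66.1 and 68.5 CPM in the mutants, with both mutants above both controls (log2 fold change 0.20, SE 0.17, 95% interval -0.15 to 0.54, adjusted p = 0.68). On the error estimated by the fit, this interval lay well inside a 2-fold change. The gamma genes with the most negative and most positive values were Pcdhga4, at 118, 155, 68 and 46 counts (log2 fold change -1.01, SE 0.58, adjusted p = 0.41), and Pcdhgb7, at 41, 139, 152 and 102 counts (log2 fold change 0.96, SE 0.59, adjusted p = 0.49). In Pcdhgb7 the difference came from control 1, since control 2 and both mutants lay between 6.50 and 6.88 CPM. Pcdhgb6 had 6.62, 11.4, 13.6 and 11.6 CPM (log2 fold change 0.48, SE 0.40) and Pcdhga10 had 10.7, 8.65, 9.62 and 12.5 CPM (log2 fold change 0.13, SE 0.40). Pcdhgc4 had 2.995, 3.37, 3.34 and 4.31 CPM (log2 fold change 0.20, SE 0.65) and Pcdhgc5 had 41, 27, 23 and 30 counts (log2 fold change -0.08, SE 0.98). Background in mutant 1 was estimated at 10 of the 23 counts of Pcdhgc5.

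**Figure D4:**
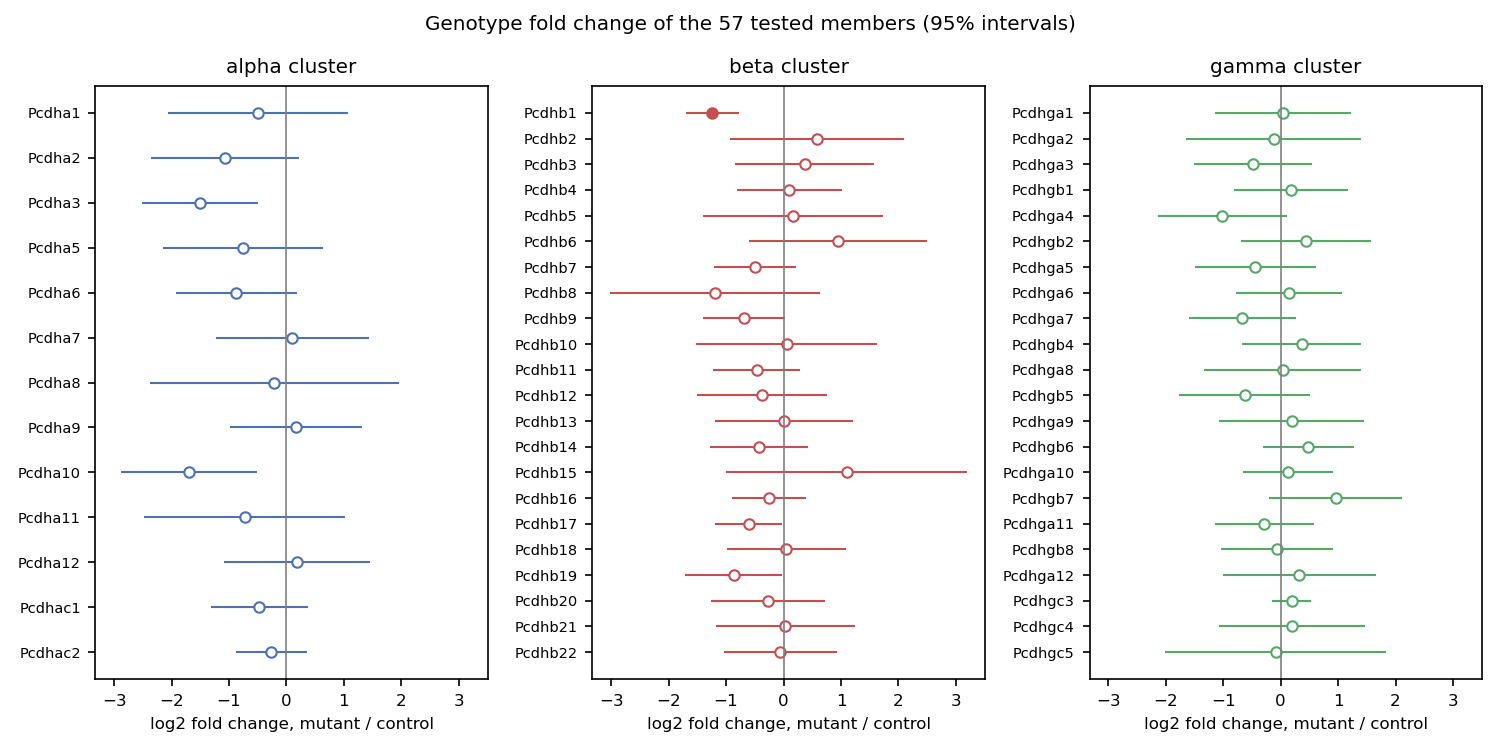
Points are the log2 fold changes of mutant over control for the 57 tested members, by cluster and in chromosomal order, with 95% intervals from the fit. The filled point, Pcdhb1 at -1.24, is the member past the threshold, and most other intervals span 0 and extend beyond 1 in at least 1 direction.

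Whether the same members moved in both experimental groups was examined by their separate log2 ratios of TMM-scaled CPM (prior count 2). Of the 57 members, 19 were lower in both groups, 11 were higher in both and 27 went opposite ways. The members lower in both made 33.3% against 32.9% of all tested genes, and those higher in both 19.3% against 29.8%. In the 1471 genes of like counts 25.3% were lower in both and 29.9% higher in both. Opposite signs were found in 5756 of the 15438 tested genes and in 659 of the 1471. By cluster, 6 of 13 alpha, 10 of 22 beta and 3 of 22 gamma genes were lower in both, and 0 alpha, 4 beta and 7 gamma genes were higher in both. Both mutants lay below both controls in CPM for 13 of 57 members, against 10.6% of all tested genes, and above both controls for 9 of 57, against 15.2%. In the genes of like counts these shares were 12.0% and 19.6%. As members share libraries and, in part, the cells they come from, these counts are a description.

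Spearman's rho between the ratios of the 2 groups was 0.07 over the 57 members, compared with 0.32 over all 15438 tested genes. Within clusters it was -0.12 for alpha, 0.34 for beta and -0.25 for gamma. The members had a median SE of 0.58 against 0.26 over all tested genes. Noise lowers such a correlation, and rho was not computed for genes of like counts, so the difference from 0.32 cannot be read as a trait of the members. The largest disagreement was in Pcdha11, which had 35 counts in control 1 against 80 in mutant 1, and 99 in control 2 against 10 in mutant 2. Likewise Pcdha2 had 102 and 120 counts in group 1 but 195 and 25 in group 2, and Pcdhga8 had 42 and 97 counts in group 1 but 134 and 43 in group 2. Controls also differed from each other. The higher control exceeded the lower more than 2-fold in 16 of 57 members, with a median of 1.46-fold over all 57, and the higher mutant exceeded the lower more than 2-fold in 6 of 57, with a median of 1.29-fold. The controls were the wider pair in 35 of 57 members. The median ratio between controls was highest in the gamma B genes, at 2.20-fold over 7 genes, and lowest in the C-type genes, at 1.13-fold over 5 genes.

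**Figure D5:**
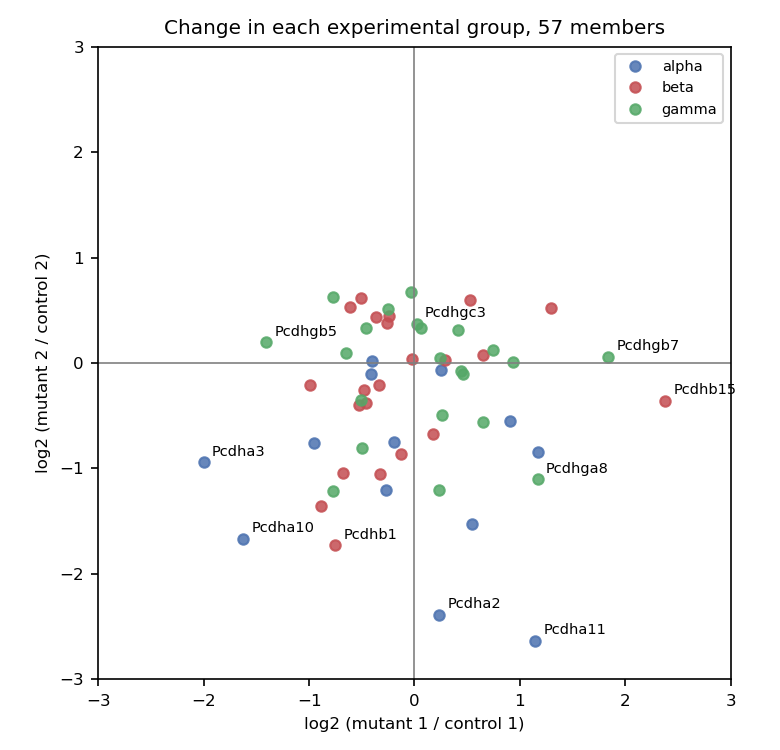
Each point is a tested member, with its log2 ratio of mutant 1 to control 1 on the x axis and of mutant 2 to control 2 on the y axis (TMM-scaled CPM, prior count 2). Pcdhb1, Pcdha10 and Pcdha3 lie in the lower left, where both ratios are negative, and 27 of the 57 points lie in the quadrants where the ratios have opposite signs.

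Genes around the clusters did not pass the test in either direction. Taf7, a TFIID subunit gene that lies between the beta and gamma clusters (chr18:37640491-37644204), had 14.7, 23.3, 18.1 and 26.4 CPM (log2 fold change 0.18, SE 0.27, adjusted p = 0.85). The mitochondrial ornithine carrier gene Slc25a2 beside it had 13, 0, 6 and 2 counts and was not tested. Before the alpha cluster, the nearest tested genes were Hars2 (log2 fold change 0.32, SE 0.22), Zmat2 (-0.0037, SE 0.19) and the vault RNA Vaultrc5 (-0.60, SE 0.70). Behind the gamma cluster, they were Diap1 (0.16, SE 0.17), Hdac3 (0.20, SE 0.16) and Rell2 (0.46, SE 0.91).

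Another list held genes known to control promoter choice in these clusters (CTCF, cohesin and its loaders and release factors, DNA methyltransferases and silencing factors). Of its tested genes, 0 of 19 passed in either direction, with a median log2 fold change of 0.05. Over all tested genes 4.30% were lower and 1.28% higher, so 0 of 19 is near that share. The smallest p was that of Smchd1, a chromosomal protein that silences clustered genes, with 56.8, 160, 102 and 212 CPM. Mutants were higher within each experimental group but the genotypes overlapped (log2 fold change 0.56, SE 0.19, adjusted p = 0.058). The de novo methyltransferase gene Dnmt3a had 182, 201, 149.8 and 135 CPM, with both mutants lower (log2 fold change -0.48, SE 0.20, adjusted p = 0.16), and the cohesin release factor Wapal had 70.7, 159, 103 and 178 CPM (log2 fold change 0.30, SE 0.19, adjusted p = 0.49). Smchd1 passed the threshold as higher under 6 of the 10 alternatives that kept the block (DESeq2 with an adjusted p of 0.022, library totals alone, no filter on low counts, a filter of more than 1 CPM in all 4 samples, thinned libraries, and pooled background subtracted from mutant 1), and DESeq2 also called Dnmt3a lower.

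Among the cytoplasmic partners of protocadherins and the proteases that cleave them, 1 of 21 tested fell and 0 rose, which is near the share of all tested genes called lower (4.30%). Psen2, a presenilin of the gamma-secretase complex, had 219 and 133 CPM in the controls and 154 and 89.1 CPM in the mutants (log2 fold change -0.60, SE 0.19, adjusted p = 0.033). The fall was the same size in both experimental groups, although control 2 lay below mutant 1. The call was lost with library totals alone and with pooled background subtracted from mutant 1.

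The nonclustered protocadherins and the related Celsr cadherins served as a comparison. Of these 15 genes, 3 fell and 0 rose, beside 4.30% lower and 1.28% higher over all tested genes. Pcdh10 had 38.4, 31.6, 27.9 and 10.2 CPM (log2 fold change -1.09, SE 0.28, adjusted p = 0.0057), Pcdh9 had 35.8, 46.1, 29.6 and 21.2 CPM (-0.75, SE 0.24, adjusted p = 0.033), and Pcdh8 had 92.5, 51.5, 71.97 and 34.4 CPM (-0.53, SE 0.17, adjusted p = 0.036). In Pcdh10 and Pcdh9 the genotypes did not overlap, and in Pcdh8 mutant 1 exceeded control 2. The drop of Pcdh10 was, like that of Pcdhb1, larger in experimental group 2 (log2 ratio -1.64) than in group 1 (-0.55). The quasi-likelihood test called none of the 3, and DESeq2, library totals alone and no filter on low counts each called Pcdh10 alone.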

How the data were processed

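RNA of Tomato+ cells was depleted of rRNA and sequenced as 50-base reads. Per the submitters' processing notes, the authors used TopHat2 2.0.7 with Bowtie2 2.0.6 on mm10 and HTSeq to deposit raw read counts per gene symbol for each sample. The annotation and strand setting are not given in the sources used here. Sequences of the members are not reported here. Tally lines (reads outside genes, ambiguous or not unique) were left out of library sizes.

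Symbols were matched to genes of the GENCODE annotation (20953 of 23337 by current symbol and 1919 by a RefSeq synonym). Places of the members came from RefSeq. The unshared exon lengths of alpha and gamma members came from GENCODE transcripts, paired with RefSeq accessions for all but Pcdhgb8. Genes above 1 CPM in at least 2 samples (15438) were tested in R 4.3.3 with the likelihood-ratio test of edgeR 4.0.16 (TMM, genotype plus experimental group, Benjamini-Hochberg threshold of 0.05), which follows the study's methods except that the tally lines were left out (with them 13560 genes were tested). The quasi-likelihood test, DESeq2 1.42.0, other scalings and filters, background subtraction and leaving out each sample were alternatives. Scripts were tested on simulated data. Experimental groups pair the samples by the submitters' design, and the deviations of paired samples correlated at 0.52. No pair of libraries agreed within sampling noise (chi-square per degree of freedom of 47.0 or more). Depth was 14833396 to 23704638 counts, where 3 counts are 0.13 to 0.20 CPM.

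Named genes were the members past the threshold, the 3 highest per cluster per kb, the C-type members, the extremes of each cluster, the neighbouring genes, the list genes past the threshold (or the 3 smallest p) and Lmnb1, Omp and Gap43. Pcdha2, Pcdha11, Pcdhb19, Pcdhga8 and others were named after their values were seen. The members and lists were chosen with earlier results of these data known.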

Additional observations from a re-analysis of the deposited data

Results flagged for a closer look

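In 10 members the 2 experimental groups went opposite ways, with a log2 ratio of CPM in each whose exact 95% counting interval excluded 0. Opposite signs were common, with 5756 of all 15438 tested genes by TMM-scaled ratios. The share of all genes that meet the rule with intervals was not computed, so these members are not shown to stand out. The difference between the groups was not tested, since each group holds 1 mouse per genotype and these intervals cover counting error only. For experimental groups 1 and 2 the ratios of the alpha genes were 0.67 and -1.56 for Pcdha1, 1.29 and -0.84 for Pcdha9, 1.29 and -2.78 for Pcdha11, and 1.03 and -0.54 for Pcdha12. Those of the beta genes were 0.27 and -0.66 for Pcdhb16, -0.42 and 0.65 for Pcdhb18, and -0.53 and 0.56 for Pcdhb22. Those of the gamma genes were 0.77 and -0.55 for Pcdhga1, 0.33 and -1.21 for Pcdhga3, and 1.31 and -1.11 for Pcdhga8.

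In reads that no gene received, mutant 1 had 39.4% outside annotated genes, against 23.8% and 24.9% in the controls. Mutant 2 had 1.20% of reads in more than 1 gene, against 0.95% and 1.04% in the controls, while mutant 1 had 0.84%, below both controls. Whether reads in the constant exons are among these was not tested.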

How the results depend on the processing

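Pcdhb1 was lower under all 15 alternatives and past the threshold in the 10 that kept the replicate block, with adjusted p of 3.3e-06 to 0.019. With no replicate block 0 members and 0 genes of the other lists passed, and over all genes 0 were lower and 6 higher, against 664 and 197 with it. With 1 sample left out, in a fit of genotype alone in which the lone sample is assumed to vary like the other group, members lower in mutant cells ran from 0 to 0 and other list genes from 0 to 0. The count of lower members was 2 with a filter of more than 1 CPM in all 4 samples and 2 with thinned libraries. No alternative called a member higher. Genes of the other lists past the threshold, 4 as reported, numbered 1 with the quasi-likelihood test (494 genes lower and 117 higher in all) and 2 with library totals alone.

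Of 16 named members, 13 kept their sign throughout. Pcdha12 turned to -0.049 with no replicate block and ran from -0.66 to 1.095 with 1 sample left out, Pcdhga10 from -0.065 to 0.341 and Pcdhgc5 from -0.58 to 0.40. As a mean of both experimental groups, the beta sum moved to -0.27 and the sum of all 3 clusters to -0.15 without Pcdhb1. The gamma sum moved to 0.033 with TMM scaling, 0.043 with RLE scaling and 0.0091 without Pcdhgc3. Other alternatives moved no cluster sum by more than the spread between the 2 groups. Low counts limit most members: 57 of 59 could be tested, and DESeq2 gave adjusted p for 4 of them.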
